A study of Mus musculus with 2 samples.

Results

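The interferon-induced transmembrane (Ifitm) genes of mouse were read here in neutrophils, as the 5 genes whose symbols are Ifitm1, Ifitm2, Ifitm3, Ifitm5 and Ifitm6. The rule that picks them is their gene symbol. They are 5 of the 55536 genes in the gene tables, with 9 of the 141864 annotated transcripts. The samples form 1 group of 2 total RNA-seq libraries, called replicates 1 and 2. Both libraries are from primary neutrophils of the spleen of male adult B6CASTF1/J mice, 65 days old. This strain is an F1 hybrid, with CAST/EiJ as the father and C57BL/6 as the mother. No treatment is given. The RNA input was 300 ng, and ERCC spike-in RNA was added. The labels number the libraries as biological replicates 1 and 2 but name the same donor for both. Part of their spread may therefore be technical, and there is no second condition to test against. RNA of the CAST/EiJ alleles was assigned with the mm10 reference, and what this did to each member's values was not tested.

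Ifitm proteins are small membrane proteins of the dispanin (CD225) group that hinder the fusion of enveloped viruses with cell membranes. Interferons bind receptors that act through JAK kinases and STAT factors, and these factors switch on target genes through interferon-stimulated response elements in their promoters. Ifitm3 is best known for blocking influenza virus in late endosomes, Ifitm2 is also endosomal, and Ifitm1 sits largely at the cell surface. Ifitm5 is a bone protein made by osteoblasts, and Ifitm6 is the least studied member in this set.

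The members lie side by side on chromosome 7 of mm10 (GENCODE M21), over 68.967 kb at chr7:140948958-141017924. Ifitm5 (ENSMUSG00000025489.5, chr7:140948958-140950291), Ifitm2 (ENSMUSG00000060591.9, chr7:140954837-140955987), Ifitm3 (ENSMUSG00000025492.6, chr7:141009586-141010770) and Ifitm6 (ENSMUSG00000059108.4, chr7:141015699-141017924) are on the minus strand. Ifitm1 (ENSMUSG00000025491.14, chr7:140967221-140969825) is on the plus strand, between Ifitm2 and Ifitm3. The gap between Ifitm1 and Ifitm3 is 39760 nt, and the other gaps are 4545, 11233 and 4928 nt. Besides the members the interval holds Gm45717, annotated as a protein-coding gene that spans Ifitm5 and Ifitm2, and the processed pseudogene Gm7514.

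**Figure D1:**
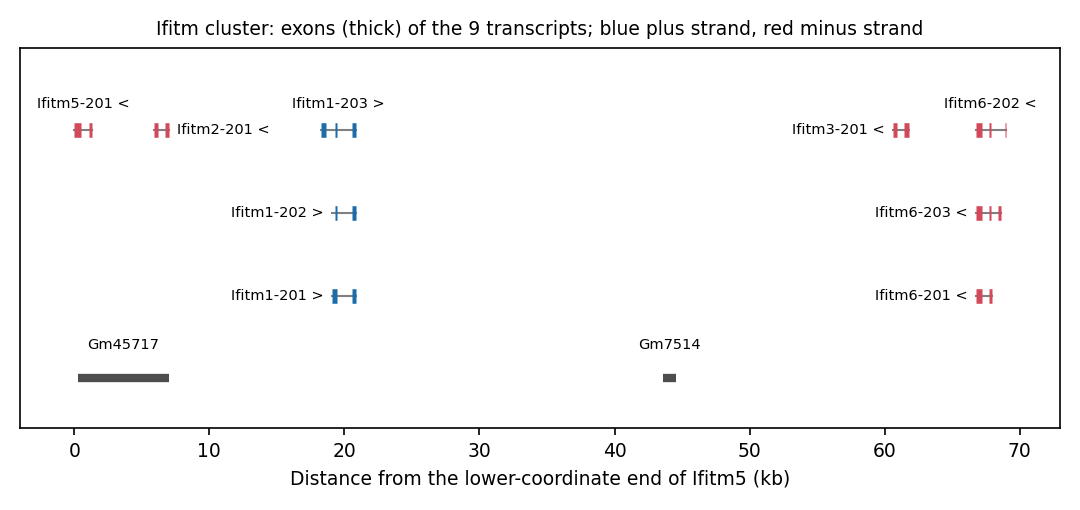
The map shows the exons (thick) and introns (thin) of the 9 annotated transcripts by distance in kb from the lower-coordinate end of Ifitm5, with plus-strand genes in blue, minus-strand genes in red and the 2 other genes in grey. Ifitm1 points against the other 4 members, and Ifitm1 and Ifitm6 have transcripts with different first exons.

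Promoter windows of RefSeq (build GRCm38.p6, 250 bases before to 50 bases after each gene's start) were at hand for all 5 members. They were searched on both strands for the core of the interferon-stimulated response element, which reads GAAA, 2 bases of any kind and GAAA. It was found in 2 of the 5 windows, those of Ifitm2 and Ifitm3, and in 3.44% of all 32851 windows. Sequences of both genes are shown because this element is one through which interferon is known to act. They are given 5′ to 3′ on the gene's strand, with the core matches in capitals. The first pair of stretches ends at the base before the annotated transcript start, at chr7:140955988-140956211 for Ifitm2 and chr7:141010771-141010994 for Ifitm3. The Ifitm3 stretch of that pair holds no core match. The last sequence holds the 30 bases from the RefSeq start of Ifitm3, at chr7:141010715-141010744. The annotated transcript Ifitm3-201 starts 26 nt upstream of the RefSeq start, so this stretch and its core matches lie within its first exon.
Ifitm2 upstream: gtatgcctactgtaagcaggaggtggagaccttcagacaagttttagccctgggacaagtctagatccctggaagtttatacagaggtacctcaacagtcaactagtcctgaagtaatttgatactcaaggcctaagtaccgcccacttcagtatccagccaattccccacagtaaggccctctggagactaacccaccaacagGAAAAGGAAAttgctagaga
Ifitm3 upstream: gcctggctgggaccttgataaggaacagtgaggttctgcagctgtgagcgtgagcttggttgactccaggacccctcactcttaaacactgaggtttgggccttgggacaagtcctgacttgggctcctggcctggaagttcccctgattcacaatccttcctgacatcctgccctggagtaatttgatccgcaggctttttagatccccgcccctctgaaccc
Ifitm3 from its start: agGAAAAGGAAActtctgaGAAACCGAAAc

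Ifitm2 had 1 core match, at positions -46 to -37 from the RefSeq start, and Ifitm3 had 2, at positions 3 to 12 and 20 to 29. The match in Ifitm2 and the first match in Ifitm3 have the same letters. With a C required after the core, the element was found only in the Ifitm3 window among the members, where both matches extend to it, and in 0.819% of all windows. The gamma-activated site TTCNNNGAA, an element of the interferon gamma response, was found at positions 14 to 22 of Ifitm3, where it overlaps the second core match, and at positions -10 to -2 of Ifitm6. That site reads the same on both strands and occurs in 8.30% of all windows. A match is a run of letters, not a shown binding site. For Ifitm1 and Ifitm6 the window is not that of every transcript. Ifitm1-203 starts 855 nt, Ifitm6-202 1032 nt and Ifitm6-203 666 nt upstream of the RefSeq start. Of the Ifitm6 transcripts only Ifitm6-201 starts near it, 16 nt upstream, and its share of Ifitm6 differs between the read assignments given below.

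Expected counts came to 18387963 in replicate 1 and 18090108 in replicate 2. Levels are the deposited TPM, a share of all transcripts that is scaled for transcript length, so genes can be compared. For a gene of 1 kb, 1 count was worth 0.0458 TPM in replicate 1 and 0.0538 in replicate 2. The 7SL RNA genes took 43.8% of all TPM in replicate 1 and 31.6% in replicate 2, and protein-coding genes took 32.8% and 45.4%, so TPM of coding genes run lower in replicate 1. ERCC RNA took 0.423% and 0.260% of the counts. All 12 neutrophil markers were abundant, from S100a9 at 13196.20 and 27791.50 TPM to Cxcr2 at 113.99 and 173.92 TPM. Summed over their lists, B cell markers had 7.24 and 24.44 TPM, T or NK cell markers 11.12 and 8.90 TPM, and monocyte or macrophage markers 402.62 and 583.18 TPM, of which Ly6c2 gave 253.27 and 371.68 TPM. Nkg7 gave 10.48 and 8.27 TPM of the T or NK cell sum, the other 8 genes of that list were below 1 TPM, and Ncr1 was at 0. Of the 12 monocyte or macrophage markers, 8 were above 1 TPM in both libraries, among them Csf1r (68.59 and 80.53 TPM), Ccr2 (32.90 and 47.06 TPM), Cd68 (25.17 and 45.72 TPM) and Adgre1 (7.61 and 10.59 TPM), and C1qa, C1qb, C1qc and Ms4a7 were below it. Markers of endothelium or stroma summed to 6.98 and 7.31 TPM, those of stem or progenitor cells to 10.1 and 9.83 TPM with Procr at 0, and those of basophils, mast cells or eosinophils to 73.41 and 99.54 TPM.

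The bulk libraries of spleen neutrophils held RNA of 4 of the 5 Ifitm genes at 113.11 TPM or more each and little of Ifitm5. The family summed to 553.54 TPM (replicate 1) and 1137.83 TPM (replicate 2) (845.7 ± 413, SD, n = 2), which was 0.169% and 0.251% of all protein-coding TPM. Ifitm6 led in both libraries. Ifitm1, Ifitm2 and Ifitm3 followed at RSEM levels that could not be put in order. In bulk RNA, a difference in the number of cells that make an RNA and one in the RNA per cell cannot be told apart. The part of other cell types in these levels, among them those with monocyte or macrophage markers, was not tested.

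Ifitm6 had 187.65 TPM (replicate 1) and 470.97 TPM (replicate 2) (329 ± 200, SD, n = 2), from 2343 and 5014 expected counts. It ranked 242 and 101 among protein-coding genes by TPM. It held 33.9% and 41.4% of the family's TPM, the largest share of any member in both libraries.

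Ifitm1 had 131.62 and 218.18 TPM (174.9 ± 61.2), Ifitm2 had 113.11 and 233.09 TPM (173.1 ± 84.8), and Ifitm3 had 120.63 and 215.27 TPM (168 ± 66.9), each in replicates 1 and 2 with SD over n = 2. The order of these antiviral members was not the same in both libraries. On the log2 scale, the within-library difference was 0.06 ± 0.22 for Ifitm1 minus Ifitm2, 0.07 ± 0.08 for Ifitm1 minus Ifitm3 and 0.01 ± 0.15 for Ifitm2 minus Ifitm3, so none exceeded its spread. Ifitm6 exceeded each of them in both libraries, by 0.81 ± 0.42 over Ifitm1, 0.87 ± 0.20 over Ifitm2 and 0.88 ± 0.35 over Ifitm3. With n = 2 these spreads are themselves poorly known, and no test was made on them.

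Ifitm5, the bone member, had 0.53 and 0.32 TPM (0.425 ± 0.148, SD, n = 2), from 7.66 and 4 expected counts. Its neighbour Ifitm2, 4545 nt away, stood 8.30 ± 1.15 higher on the log2 TPM scale. Part of the Ifitm5 sequence is shared with Gm45717: 130 of its 665 windows of 101 nt occur in that gene too. Markers of bone-forming cells summed to 115.31 and 133.93 TPM over 11 genes, mostly from the collagen genes Col1a1 (59.31 and 61.10 TPM) and Col1a2 (26.68 and 30.23 TPM) and from the factor Runx2 (20.54 and 22.93 TPM). Of the other listed genes, the osteocalcin genes Bglap (6.19 and 15.32 TPM) and Bglap2 (1.90 and 3.05 TPM) were above 1 TPM. Ibsp, Sp7, Alpl, Dmp1 and Phex were below 1 TPM in both libraries, and Sost was at 0. The part of such cells in the Ifitm5 counts was not tested.

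**Figure D2:**
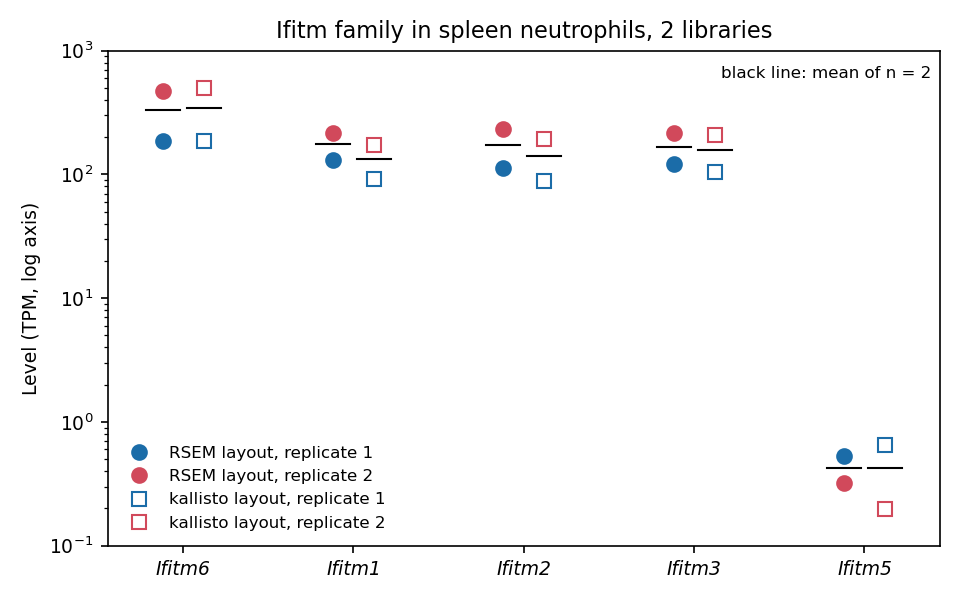
Level of each member in TPM on a log axis, by the RSEM layout (filled circles) and the kallisto layout (open squares), for replicate 1 (blue) and replicate 2 (red), with the mean of n = 2 as a black line. Ifitm6 is highest in both libraries, Ifitm1, Ifitm2 and Ifitm3 lie together, and Ifitm5 is below 1 TPM.

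The deposited tables assign reads in 2 ways. The gene table and a transcript table have the column layout of RSEM and were made from transcriptome alignments, and a second transcript table has the layout of kallisto and was made directly from the reads.  By kallisto Ifitm6 had 184.9 and 499.2 TPM, Ifitm3 had 105.4 and 207.5 TPM, Ifitm1 had 92.6 and 174.5 TPM, Ifitm2 had 87.9 and 194.6 TPM and Ifitm5 had 0.654 and 0.197 TPM. Of the members, 0 were over 2-fold apart in the same direction in both libraries, where 13.2% of the 13328 genes compared and 4.19% of the 10370 protein-coding genes compared were. Ifitm5 did not reach the 1 TPM needed for that comparison. The largest difference was that of Ifitm1, at 0.51 and 0.32 on the log2 scale (RSEM over kallisto), and the smallest was that of Ifitm6, at 0.02 and -0.08. Kallisto placed Ifitm1 below Ifitm3 by 0.22 ± 0.04 and Ifitm2 below Ifitm3 by 0.18 ± 0.12 on the log2 scale, a separation the RSEM levels did not show.

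Exact sequence shared with other genes limits how reads can be assigned. No window of 101 nt of Ifitm1, Ifitm3 or Ifitm6 occurs in another annotated gene. Ifitm2 shares 192 of its 555 windows, 168 of them with Gm45717 and 24 with the processed pseudogene Gm8865. Gm45717 itself received 2.91 and 0 expected counts, so adding it left the Ifitm2 ratio between the libraries at -0.79. Gm8865 received 0 expected counts in both libraries, and 4.13 and 1.72 counts by kallisto. The coding sequences are alike but not the same. Identity was taken over all alignment columns, with gaps counted as differences, so a pair of unlike lengths scores lower. Ifitm2 and Ifitm3 were identical at 75.8% of columns (332 of 438), Ifitm1 and Ifitm3 at 63.5% (263 of 414) and Ifitm1 and Ifitm2 at 60.2% (262 of 435). Ifitm1 and Ifitm6 were identical at 58.4%, and the other pairs at 48.9% to 51.6%. The coding lengths are 321 nt for Ifitm1, 435 nt for Ifitm2, 414 nt for Ifitm3, 405 nt for Ifitm5 and 315 nt for the leading Ifitm6 transcript. The percentages therefore do not rank the pairs by how alike their paired bases are.

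Ifitm1 and Ifitm6 each have 3 annotated transcripts, and Ifitm2, Ifitm3 and Ifitm5 have 1. The transcript that starts farthest upstream, Ifitm6-202, took most of Ifitm6: 56.8% and 64.5% of the gene's TPM by RSEM and 78.9% and 70.3% by kallisto. The rest was divided in opposite ways. RSEM gave 42.6% and 35.2% to Ifitm6-201, which kallisto listed at essentially 0, and kallisto gave 21.1% and 29.7% to Ifitm6-203, which RSEM put at 0.570% and 0.344%. Ifitm6-201 and Ifitm6-202 have the same coding sequence, and together they held 99.5% ± 0.160 of the gene by RSEM and 74.6% ± 6.09 by kallisto (SD, n = 2). Ifitm6-203 has a different coding sequence of 375 nt. Only 49 of the 578 windows of Ifitm6-202 and 39 of the 563 windows of Ifitm6-201 are found in that transcript alone, so most windows do not tell the pair apart. Ifitm6-203 has more sequence of its own, with 186 of its 713 windows in no other transcript. The posterior SD of the RSEM count of Ifitm6-202 was 126.39 and 155.2 counts, while that of the whole gene was 0 in both libraries.

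Ifitm1-203, whose first exon lies farthest upstream, held 52.3% and 38.7% of Ifitm1 TPM by RSEM and 72.3% and 53.3% by kallisto. Ifitm1-202 held 43.4% and 55.5% by RSEM against 15.1% and 15.3% by kallisto, and Ifitm1-201 held 4.25% and 5.83% by RSEM against 12.6% and 31.4% by kallisto. The 3 transcripts have the same coding sequence of 321 nt and differ in their first exons and 5′ untranslated parts. In Ifitm1-203, 346 of 782 windows occur in no other transcript, against 23 of 460 in Ifitm1-202 and 199 of 636 in Ifitm1-201.

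**Figure D3:**
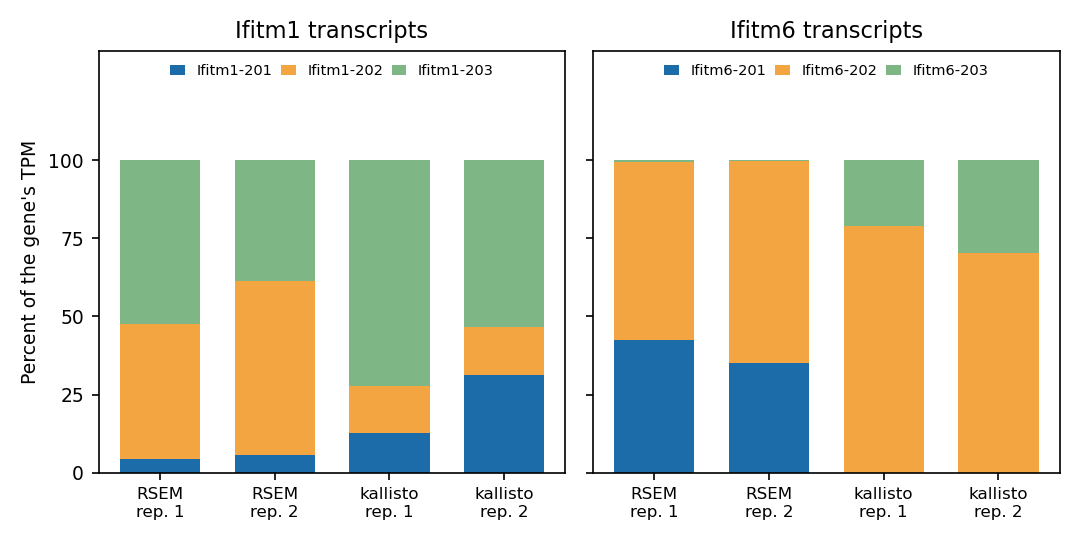
Stacked bars give the percent of the gene's TPM in each annotated transcript of Ifitm1 (left) and Ifitm6 (right), by layout and library. Ifitm6-202 is the largest part in all 4 bars, and the layouts divide the rest of Ifitm6 between Ifitm6-201 and Ifitm6-203 differently.

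The libraries were compared by an exact binomial test (two-sided) of the expected counts, scaled by trimmed means of M values (TMM), which corrects for a few very abundant RNAs. It compares these 2 libraries, not conditions, and covers counting error only. Ratios are replicate 1 over replicate 2, so a negative value is lower in replicate 1. Of the 5 members, 4 were called lower in replicate 1, where 16.9% of the 15118 genes tested were. Among the 4842 genes whose counts reached 1000 over both libraries, a set taken after the values were seen, 1454 were called lower in replicate 1. The median ratio over all tested genes was -0.00 on the log2 scale, with quartiles of -0.25 and 0.24.

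Ifitm6 had the largest difference of the family, a log2 ratio of -1.08 (exact binomial test, Benjamini-Hochberg adjusted p = 2.10e-208). Of all genes tested, 2.86% were called lower in replicate 1 by at least 1 on the log2 scale. Ifitm2 had a ratio of -0.79 (adjusted p = 9.01e-60), Ifitm3 of -0.59 (adjusted p = 7.69e-34) and Ifitm1 of -0.38 (adjusted p = 1.65e-16) in the same exact test. A share of 4.17% of all tested genes had a ratio at or below that of Ifitm6, 6.89% at or below that of Ifitm2, 10.4% at or below that of Ifitm3 and 17.2% at or below that of Ifitm1. Ifitm5, with 7.66 and 4 expected counts, had a ratio of 0.93 and was not called (adjusted p = 0.561 in the exact test). Neither gene beside the cluster was called: Pgghg, the protein-coding gene before Ifitm5, had 7.91 and 8.62 TPM with a ratio of 0.19 (adjusted p = 0.112, exact test), and Gm17387, after Ifitm6, was at 0 counts in both and was not tested.

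In a grouping of the Ifitm1 transcripts made after their values were seen, the ratio of the far-start transcript was nearer to 0 than that of the near-start pair. Ifitm1-203 had 1175.2 and 1227.04 counts by RSEM (log2 ratio -0.05), and 1245.75 and 1320.94 counts by kallisto (log2 ratio -0.18). Ifitm1-201 and Ifitm1-202 together, which start 36 and 48 nt upstream of the RefSeq start, had 650.9 and 1183.9 counts by RSEM (log2 ratio -0.85), and 301.2 and 782.6 counts by kallisto (log2 ratio -1.47). The difference between the groups of transcripts was not tested. The posterior SD of the deposited RSEM counts was 38.77 and 42.41 counts for Ifitm1-203.

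Interferon genes themselves gave no reads by RSEM. All 21 interferon ligand genes, type I, II and III, were at 0 expected counts in both libraries, which allows up to 3 counts per gene in each. Kallisto listed Ifna16 at 1.88 and 2.63 counts and the others at 0. All 13 receptor and signalling genes were above 1 TPM, led by the kinase Jak1 (74.17 and 82.22 TPM), the transcription factor Irf1 (52.79 and 94.61 TPM) and the type I receptor chain Ifnar2 (55.40 and 57.80 TPM). Of these 13, 6 were called lower in replicate 1, among them Irf1 (log2 ratio -0.53), and 2 were called higher there, the interferon gamma receptor chain Ifngr2 (log2 ratio 0.20) and the kinase Tyk2 (0.25). With scaling by ERCC RNA, which moved the median of all genes to -0.74, both turned round to -0.54 and -0.49, and all 13 were called lower in replicate 1. Over all genes 16.9% were called lower in replicate 1 and 14.5% higher, and with ERCC scaling 72.7% were called lower. All 13 are among the 4842 genes whose counts reached 1000 over both libraries, of which 1454 were called lower with TMM scaling.

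Other interferon-stimulated genes were mostly lower in level than Ifitm1, Ifitm2, Ifitm3 and Ifitm6, and mostly higher than Ifitm5. Their median was 5.10 TPM in replicate 1 and 9.87 TPM in replicate 2 over 34 genes. Among the highest were Samhd1, which limits viral DNA synthesis by breaking down nucleotides (185.58 and 253.75 TPM), and Ifi27l2a (16.29 and 61.85 TPM). Only Samhd1 of this list had a mean TPM above that of Ifitm1, Ifitm2 or Ifitm3. Of the 33 genes tested, 27 were called lower in replicate 1 and 0 higher, and 6 were not called, where 16.9% of all genes tested were called lower and 14.5% higher. Their median log2 ratio was -0.69, with a range from -2.11 to 0.09, and Samhd1 was at -0.23 and Ifi27l2a at -1.67. The ratios of the 4 called Ifitm members lie within that range. They also lie within the ranges of the neutrophil markers (-1.11 to -0.03), the monocyte or macrophage markers (-1.11 to -0.03) and the B cell markers (-2.20 to -0.20). Lying in the range is therefore not particular to interferon-stimulated genes.

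All 12 neutrophil markers were called lower in replicate 1, where 16.9% of all genes tested were. Their median log2 ratio was -0.48, and they summed to 40281.9 and 80358.5 TPM. All 12 are among the 4842 genes whose counts reached 1000 over both libraries, of which 1454 were called lower. B cell markers had a median ratio of -1.57, with 6 of 8 tested called lower in replicate 1. Erythroid markers, which summed to 45.62 and 114.84 TPM over 6 genes, had a median ratio of -1.32, with 3 of 6 called lower in replicate 1 (6 of 6 with ERCC scaling, where 72.7% of all genes were). Monocyte or macrophage markers had 6 of 8 tested called lower in replicate 1, with a median ratio of -0.38. The 8 platelet or megakaryocyte markers summed to 19.37 and 14.58 TPM, with a median ratio of 1.38. Of them 5 were called higher in replicate 1, where 14.5% of all genes tested were, Gp9 was called lower there and 2 were not called. With ERCC scaling 2 of these 8 were called higher in replicate 1 and 1 lower. Of all 15118 genes tested, 183 were called higher with that scaling and 72.7% lower. Of 8 endothelium or stroma markers tested 0 were called lower and 2 higher in replicate 1 (median ratio 0.36). Of 7 osteoblast or osteocyte markers 1 was called lower and 2 higher (0.09). Of 9 basophil, mast cell or eosinophil markers 3 were called lower and 0 higher (-0.02), and of 5 stem or progenitor markers 0 in either direction (0.22). With ERCC scaling these lists had, in that order, 3, 6, 8 and 4 called lower, where 72.7% of all genes were. Their medians were then -0.34, -0.65, -0.75 and -0.51, and 1 endothelium or stroma marker was called higher. The part of any of these cell types in the Ifitm ratios was not tested.

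**Figure D4:**
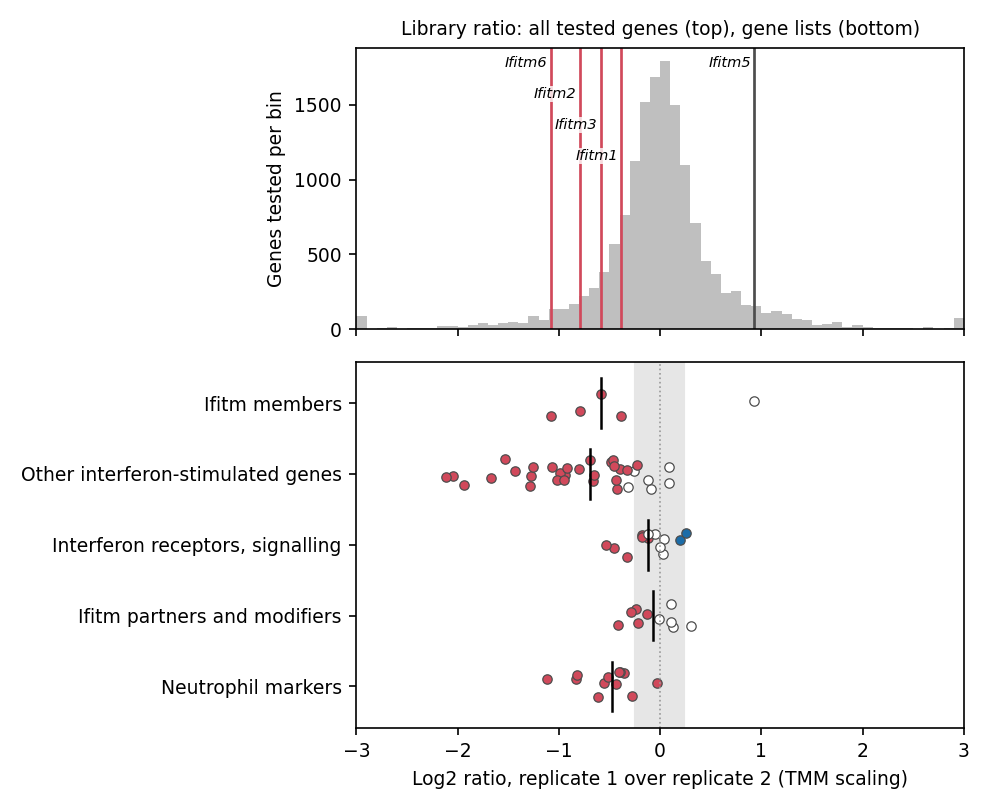
Top, the log2 ratio of replicate 1 over replicate 2 for the 15118 genes tested, in bins of 0.1 with values beyond 3 in the end bins, and lines at the 5 members (red, called lower in replicate 1; grey, not called). Bottom, 1 point per gene for the members and 4 gene lists (red, called lower in replicate 1; blue, called higher; white, not called), with each median as a black bar and the quartiles of all genes as a grey band; 4 members lie left of the band and Ifitm5 lies right of it.

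RNA was also read of 10 genes whose proteins are known, mostly from human cells, to modify, sort or bind Ifitm proteins. The tetraspanin Cd9 had 96.15 and 146.72 TPM, Ap2m1, the adaptor subunit that takes membrane proteins into clathrin-coated vesicles, had 55.90 and 76.78 TPM, and the ubiquitin ligase Nedd4 had 46.77 and 55.61 TPM. Of these genes, 5 were called lower in replicate 1 (Cd9, Ap2m1, Nedd4, Zmpste24 and Cd81) and 5 were not called, with a median log2 ratio of -0.07. Of all genes tested, 16.9% were called lower. All 5 called genes are among the 4842 genes whose counts reached 1000 over both libraries, of which 1454 were called lower. The palmitoyltransferase Zdhhc20 had 12.20 and 14.81 TPM, and Fkbp11, known as a partner of Ifitm5 in bone, had 0.63 and 0.61 TPM.

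The other mouse dispanins were rare. Of 8 listed, Ifitm10 had 4.32 and 6.03 TPM from 99.69 and 102 expected counts, with a log2 ratio of -0.01 that was not called, and 7 were below 1 TPM in both libraries. Tmem91 had 0.24 and 0.56 TPM and Prrt2 had 0.25 and 0.06 TPM. Ifitm7, Syndig1, Tmem233 and Trarg1 were at 0 expected counts in both. For Syndig1 and Tmem233, also at 0 by kallisto, this allows up to 3 counts each. Kallisto gave Ifitm7 12.1 and 0 counts and Trarg1 4 and 3 counts. It gave Tmem91 26.0 and 18.9 counts against 2 and 4 by RSEM, and Prrt2 0 and 0 against 6 and 0.84. The levels of these genes therefore depend on the layout.

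Among 22023 protein-coding genes outside the family, those nearest to each member in TPM over the 2 libraries were named by distance on log2(TPM + 0.1). With 2 libraries this says only that 2 pairs of levels are close. Nearest to Ifitm6 were the transcription factor Jun (190.25 and 452.57 TPM), B2m, the light chain of MHC class I (196.39 and 468.62 TPM), and the histone gene Hist1h3b. Nearest to Ifitm1 were Hist1h2bn, Plac8 and Rps6, to Ifitm2 Cst3, Rpl10-ps3 and Cnn2, and to Ifitm3 Hist1h3c, Dynlt1f and Rpl17, all at distances between 0.009 and 0.170.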

How the data were processed

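Total RNA-seq of 1 group of 2 libraries was read from the deposited tables, made for mm10 with GENCODE M21 per the files' accompanying notes. Programs, versions and the aligner were not given in the sources used here. For the deposited RSEM-layout gene and transcript tables, expected counts were derived by the authors from transcriptome alignments, TPM and FPKM were scaled by effective length, the credible bounds of TPM are the authors' signal values, and the posterior SD of the count is the authors' score. In the deposited kallisto-layout table, estimated counts and TPM came directly from the reads. FPKM and the bounds served only as checks.

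Levels are deposited TPM as mean ± SD (n = 2). The p-values measure only the spread of counting. Rounded expected counts were scaled with TMM (edgeR 4.0.16, R 4.3.3) and tested with an exact two-sided binomial test (SciPy 1.17.1) in genes whose counts over both libraries reached 10, Benjamini-Hochberg adjusted over all of them at 0.05. Log2 ratios have 0.5 added to each scaled count. Kallisto TPM was summed by gene and compared with 0.1 added, in genes with a mean of at least 1 TPM by either layout. Windows of 101 nt are the shortest stretch the deposited effective lengths imply (length minus 100 nt). The binomial comparison was tried on simulated counts with counting error only, and the search for shared windows on random sequences. The other calculations were not tried on simulated data. PCR reads that carry no molecular identifiers are not independent molecules, so limits cover counting error only.

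The members and gene lists were chosen with earlier results of these data known. Named in the text are all members, the 3 highest genes by mean TPM of each list other than the cell type markers, markers at 0, the 3 genes nearest to each member with at least 10 counts in each library, and the genes beside the cluster. A gene that this rule would name is not reported here. Other named genes (the list genes beyond the 3 highest, and those sharing sequence) were chosen after their values were seen. Alternatives were scaling by total counts, DESeq2 1.42.0 size factors, ERCC RNA or kallisto counts, other added constants and minimums, and leaving out each library. Protein sequences were not used here.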

Additional observations from a re-analysis of the deposited data

How the results depend on the processing

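The 4 Ifitm members called lower in replicate 1 were called so under every scaling, count source, added constant and minimum tried. Ifitm5 kept its direction in the settings that tested it, and a minimum of 50 counts left it untested. ERCC scaling moved the median of all genes to -0.74 and gave log2 ratios of -1.82 for Ifitm6, -1.54 for Ifitm2, -1.33 for Ifitm3, -1.13 for Ifitm1 and 0.25 for Ifitm5, while 72.7% of all genes were called lower in replicate 1. With it, calls of lower in replicate 1 were 33 other interferon-stimulated genes, 13 receptor and signalling genes (0 higher, with Ifngr2 at -0.54 and Tyk2 at -0.49 in place of ratios above 0), 9 partners and 1 relative. With kallisto counts, 1 relative was called higher in replicate 1, Ifitm7 with 12.1 and 0 counts. The family sum was 2096 TPM when TPM was taken over protein-coding genes only, and 553.54 to 1137.83 TPM when leaving out a library. Ifitm6-202 held 60.6% by RSEM in place of 74.6% by kallisto, and 70.3% to 78.9% when leaving out a library. The response element core with a C required after it was found in 1 member window. Leaving out a library left 0 members apart between layouts, and gives no ratio between libraries. No paired analysis was possible because the samples form 1 group. The planned search of protein motifs was not run. Ifitm5 rests on 7.66 and 4 counts, so its order between libraries was not detectable at this depth.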
